A study of Mus musculus with 2 samples.

Results

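Cadherins are calcium-dependent adhesion proteins, and 43 protein-coding genes of 3 of their branches were followed in RNA from the embryonic mouse midbrain. They were chosen by gene name in GENCODE M21 from 43346 measured genes: the numbered Cdh genes (Cdh5, the endothelial cadherin, was left out), the protocadherin genes outside the clustered arrays, Celsr1 to Celsr3, Fat1 to Fat4, Dchs1 and Dchs2. The rule reads gene names and no expression value. The tissue was dissected at 12.5 days of gestation from healthy B6NCrl embryos of mixed sex, with no treatment or transgene in the labels, and it formed 1 group of 2 libraries. Replicate 1 came from a pool of 120 embryos and replicate 2 from a pool of 88, each library from 10 ng of RNA above 200 nt that the labels call total RNA. Replicate 1 held 28212922 estimated counts on genes and replicate 2 held 36082643. With 1 tissue and 1 stage there was no condition to test, so the comparisons are between genes within the midbrain and between the pools.

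The classical cadherins join neighbouring cells through their outer domains, mostly to the same cadherin on the next cell, and hold actin through catenins on the inside. Type I cadherins seal the adherens junctions of epithelia, the neuroepithelium among them, while type II cadherins mark subdivisions and neuron groups of the developing brain. The delta protocadherins adhere more weakly and signal to the cytoskeleton. Celsr proteins belong to the planar cell polarity system, and the giant cadherins of the Fat and Dchs kind pair with each other across cell borders and feed into tissue polarity and growth control. The genes were divided into 8 classes on this textbook basis: 5 type I and 12 type II cadherins, 5 other cadherins, 4 delta-1, 5 delta-2 and 3 other protocadherins, 3 Celsr genes, and 6 Fat and Dchs genes.

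The midbrain label was set against marker genes. All 10 midbrain and isthmus markers were at 1 TPM or more in both libraries (TPM is the deposited abundance, scaled for transcript length and library size), with Otx2 at 146.55 and 141.78 TPM in replicates 1 and 2 and Dmbx1 at 14.66 and 15.09 TPM. They were not all even between the pools: 7 of the 10 had a lower ratio in replicate 1. By normalised counts 3 were called (adjusted p under 0.05 and 1.5-fold or more apart). These were Cnpy1 at 77.67 and 121.6 TPM, Fgf17 at 6.33 and 11.08 TPM and, in the other direction, Fgf8 at 4.58 and 3.55 TPM. Fgf8 had 77 and 62 counts, a normalised ratio of 1.60. Its TPM values were less than 1.5-fold apart, and their deposited intervals overlapped. The forebrain list was also detected in full, and its 10 genes summed to 306.57 TPM in replicate 1 and 204.68 TPM in replicate 2. Mesenchyme markers summed to 1107 and 1577 TPM, endothelial markers to 160.04 and 185.1 TPM, and surface epithelium markers to 21.94 and 28.37 TPM. In tissue RNA of this kind, fewer cells of a type and less RNA per cell cannot be told apart.

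Of the 43 genes, 31 reached 1 TPM in both libraries, against 60.6% of all 21474 protein-coding genes. In both libraries 10 genes stayed under 1 TPM, against 37.6% of protein-coding genes, and Cdh18 and Cdh23 lay on either side of it. The family summed to 737.29 TPM in replicate 1 and 730.28 TPM in replicate 2. A few genes carried most of that sum: Cdh2 alone held 25.4% and 24.5% of it, and the 7 most abundant genes held 71.9% and 71.1%. Among genes at a mean of 1 TPM or more, the median level was 9.71 TPM for the 33 family genes and 21.2 TPM for protein-coding genes in general.

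**Figure D1:**
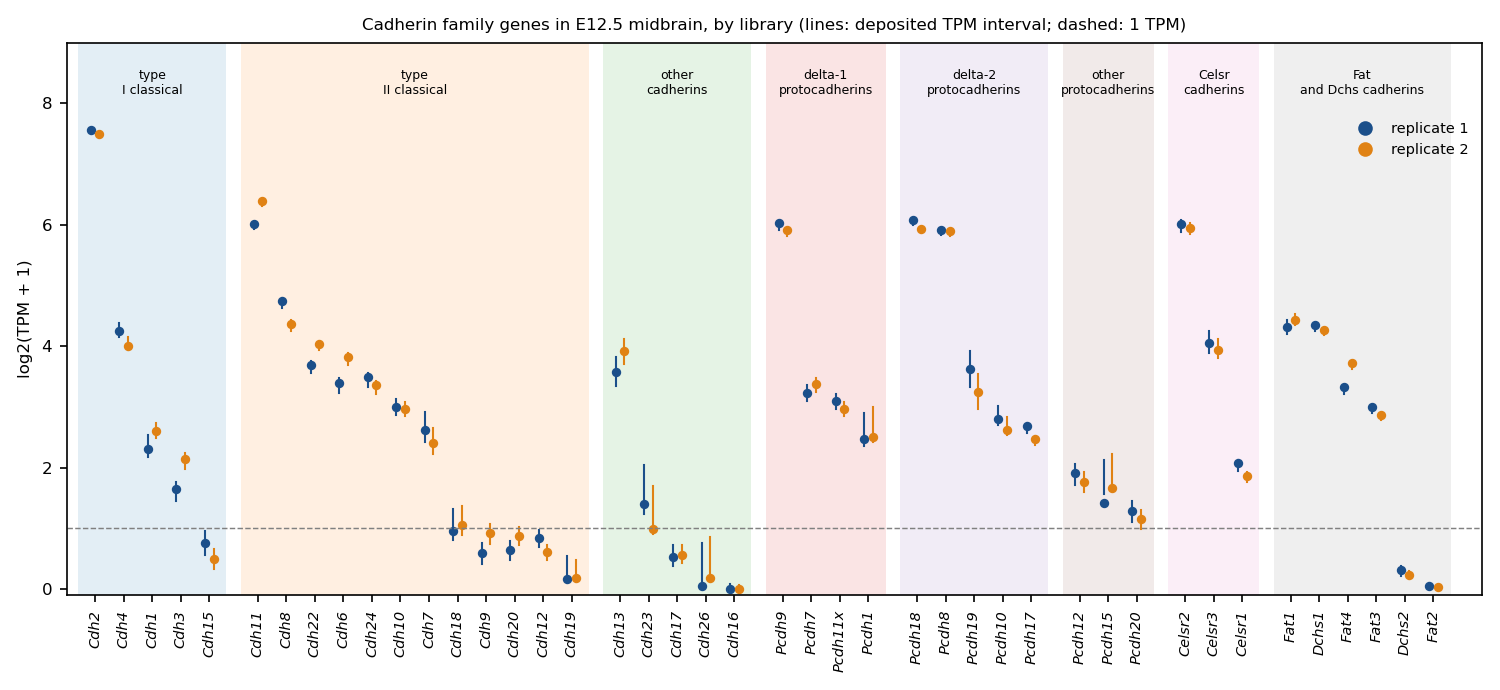
Level of each gene as log2(TPM + 1), by class, with replicate 1 in blue to the left of replicate 2 in orange; vertical lines are the deposited TPM intervals and the dashed line marks 1 TPM. Cdh2 stands above all others at 187.56 and 179.08 TPM, and 10 genes lie under the dashed line in both libraries.

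Cdh2, the N-cadherin of neuroepithelial junctions and neurons, reached 187.56 TPM in replicate 1 and 179.08 TPM in replicate 2, rank 756 and 821 among protein-coding genes. It made up 88.4% and 88.2% of all type I cadherin TPM. Cdh4 (R-cadherin, also of the neural tube) followed at 17.95 and 14.98 TPM. The epithelial cadherins were low: Cdh1 (E-cadherin) had 3.95 TPM in replicate 1 and 5.07 TPM in replicate 2. Cdh3 (P-cadherin) had 2.13 and 3.41 TPM. Cdh15, the cadherin of muscle, was under 1 TPM at 0.70 and 0.41 TPM, beside the muscle markers Myog at 0.24 and 0.10 TPM, Myod1 at 0.03 and 0.05 TPM, Acta1 at 1.02 and 0.74 TPM and Tnnt1 at 8.78 and 9.16 TPM. The order in this class was Cdh2, Cdh4, Cdh1, Cdh3 and Cdh15 in each library.

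Among type II cadherins 7 of 12 genes reached 1 TPM in both libraries. Cdh11, which is also made in mesenchyme, led with 63.84 TPM in replicate 1 and 82.44 TPM in replicate 2. Its deposited intervals did not overlap, though each lay slightly below its TPM. Cdh8 followed at 25.82 and 19.61 TPM, also with separate intervals. Below these the order depended on the library. Cdh22 was at 11.92 and 15.47 TPM. Cdh6 was at 9.49 and 13.15 TPM. Cdh24 was at 10.20 and 9.22 TPM, so that it lay above Cdh6 in replicate 1 and below it in replicate 2. Cdh10 had 6.99 and 6.81 TPM, and Cdh7, known from subdivisions of the embryonic brain, had 5.13 and 4.27 TPM. Cdh18 straddled the detection level with 0.93 and 1.07 TPM. The remaining genes Cdh9, Cdh12, Cdh19 and Cdh20 ranged from 0.12 TPM (Cdh19 in replicate 1) to 0.89 TPM (Cdh9 in replicate 2). Cdh19 is a gene of neural crest glia, and 4 of the 5 markers of that cell type were also under 1 TPM in both libraries, with Sox10 at 0.39 and 0.96 TPM.

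Of the other cadherins, Cdh13 (T-cadherin, held by a lipid anchor and without a cytoplasmic tail) had 10.92 TPM in replicate 1 and 14.18 TPM in replicate 2. Cdh23, which with Pcdh15 forms the tip links of inner ear hair cells, was at 1.65 and 0.99 TPM. Cdh17, known from intestine, had 0.45 and 0.48 TPM, and Cdh26 had 0.04 and 0.14 TPM. Cdh16, the kidney cadherin, had 0 counts in both libraries, which allows up to 0.107 CPM (counts scaled to library size) in replicate 1 and 0.0829 in replicate 2.

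Every delta protocadherin was detected in both libraries. The delta-1 gene Pcdh9 had 64.15 TPM in replicate 1 and 59.02 TPM in replicate 2. Its 3 relatives were much lower. Pcdh7 had 8.42 and 9.39 TPM. Pcdh11x, on the X chromosome, had 7.57 and 6.84 TPM. Pcdh1 had 4.52 and 4.67 TPM. In the delta-2 class, some of whose members can recruit the actin-regulating WAVE complex, Pcdh18 had 66.66 and 59.76 TPM and Pcdh8 had 59.23 and 58.29 TPM. Pcdh8 differed least between the libraries in this class, and its deposited intervals overlapped, as did those of Pcdh10 and Pcdh19. Pcdh19, which in people is linked to an X-linked epilepsy, had 11.34 and 8.43 TPM. Pcdh10 followed at 5.96 and 5.13 TPM, and Pcdh17 at 5.46 and 4.56 TPM. The 3 other protocadherins were near the detection level: Pcdh12, an endothelial protein, had 2.76 and 2.39 TPM, Pcdh15 had 1.66 and 2.16 TPM, and Pcdh20 had 1.43 and 1.22 TPM. Deposited intervals need not hold their own TPM: this was so in at least 1 library for 3 of the 33 genes at a mean of 1 TPM or more (7.42% of genes in general). The intervals of Pcdh15 lay above its TPM in both libraries, and those of Cdh2 and Cdh11 lay below it.

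Celsr2 was the leading Celsr gene with 63.20 TPM in replicate 1 and 60.71 TPM in replicate 2, ahead of Celsr3 at 15.51 and 14.40 TPM and Celsr1 at 3.20 and 2.65 TPM. Of the giant cadherins, Dchs1 had 19.37 and 18.25 TPM and Fat1 had 18.90 and 20.62 TPM, so this pair changed order between the libraries. Fat4, the binding partner of Dchs1, had 9.01 and 12.16 TPM. Fat3 had 7.0 TPM in replicate 1 and 6.28 TPM in replicate 2. Dchs2 was at 0.24 and 0.17 TPM and Fat2, known from cerebellar granule cells, at 0.04 and 0.02 TPM.

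By class, type I cadherins summed to 207.62 ± 6.60 TPM (SD, n = 2), type II to 145.37 ± 12.8 TPM and delta-2 protocadherins to 142.41 ± 8.82 TPM. The last pair differed by less than their spread: type II summed to 136.31 TPM in replicate 1 and 154.42 TPM in replicate 2, and delta-2 to 148.65 and 136.17 TPM. Delta-1 protocadherins summed to 82.29 ± 3.35 TPM and Celsr genes to 79.84 ± 2.93 TPM. Their ranges overlapped between libraries, but delta-1 was above Celsr in each, at 84.66 and 81.91 TPM in replicate 1 and at 79.92 and 77.76 TPM in replicate 2. Fat and Dchs genes summed to 56.03 ± 2.08 TPM. The other cadherins summed to 14.4 ± 1.93 TPM and the other protocadherins to 5.81 ± 0.0566 TPM. The transcripts of the giant cadherins are long, so the scale matters for them: Fat and Dchs genes held 7.64% of the family TPM and 17.8% of its CPM, which is not divided by length. On that scale delta-2 protocadherins stood above type II cadherins in both libraries, with 19.6% and 18.2% of the family counts, against 13.7% and 16.0%.

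**Figure D2:**
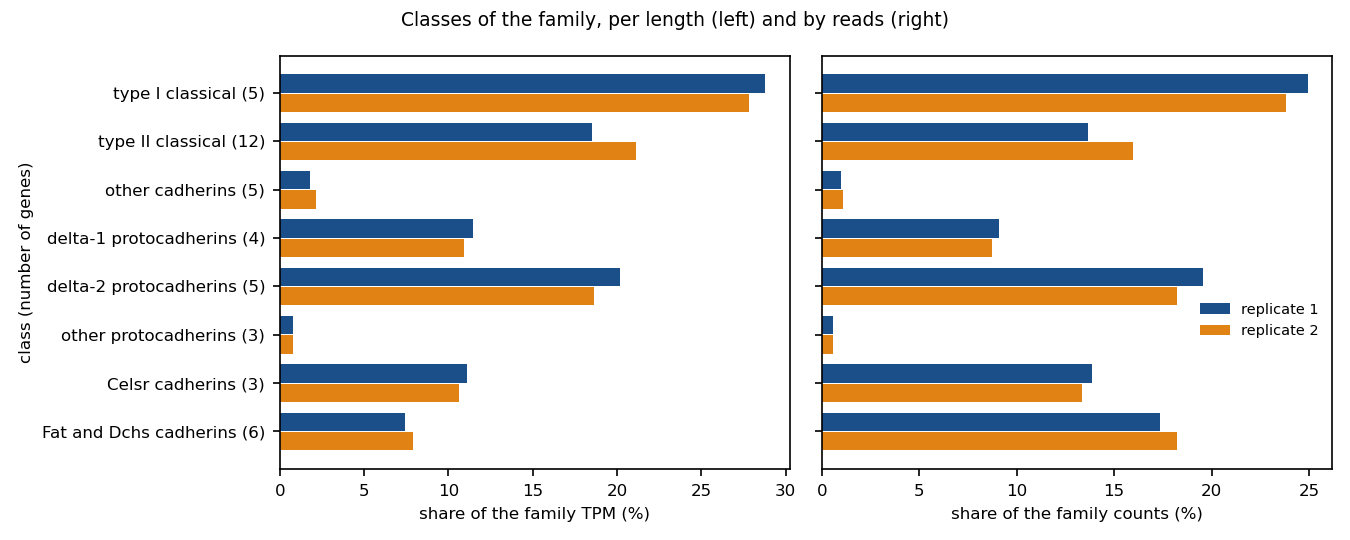
Share of each class in the family, as percent of summed TPM (left) and percent of summed estimated counts (right), with replicate 1 in blue above replicate 2 in orange and the number of genes in brackets. Type I cadherins take the longest bar on both scales, and Fat and Dchs genes take 7.40% and 7.87% by TPM but 17.3% and 18.2% by counts.

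The genes lie on 14 chromosomes, 8 of them on chromosome 8 and 6 on chromosome 15 (GRCm38, GENCODE M21). They are long: the median span was 123 kb, against 25.1 kb for protein-coding genes at 1 TPM or more, and 24 of 43 exceeded 100 kb, against 11.5% of protein-coding genes. On chromosome 15, Cdh6 (chr15:13028701-13173675), Cdh9 (chr15:16728756-16857094), Cdh10 (chr15:18818947-19014236), Cdh12 (chr15:20449265-21589533) and Cdh18 (chr15:22549022-23474418) follow each other with 0 protein-coding genes between them. Their levels did not run together: Cdh6 and Cdh10 were detected in both libraries, and Cdh9 between them was at 0.51 and 0.89 TPM. On chromosome 8, Cdh8 (chr8:99024471-99416471) and Cdh11 (chr8:102632095-102785642) are neighbours 3216 kb apart with 0 protein-coding genes between. Cdh8 was at 25.82 and 19.61 TPM and Cdh11 at 63.84 and 82.44 TPM in replicates 1 and 2, so the pools differed in opposite directions at these neighbours.

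Promoter sequences (RefSeq, GRCm38.p6, 250 bases before to 50 after a start) were matched for 29 of the 43 genes. The dinucleotide CG, which reads the same on both strands and is dense in the promoters of many widely used genes, was counted in each. Shown first are the chromosome 15 neighbours, Cdh6 (chr15:13173626-13173925 on the minus strand), Cdh9 (chr15:16728665-16728964 on the plus strand) and Cdh10 (chr15:18820079-18820378 on the plus strand), of which the middle gene was under 1 TPM. Capitals mark CG.
Cdh6: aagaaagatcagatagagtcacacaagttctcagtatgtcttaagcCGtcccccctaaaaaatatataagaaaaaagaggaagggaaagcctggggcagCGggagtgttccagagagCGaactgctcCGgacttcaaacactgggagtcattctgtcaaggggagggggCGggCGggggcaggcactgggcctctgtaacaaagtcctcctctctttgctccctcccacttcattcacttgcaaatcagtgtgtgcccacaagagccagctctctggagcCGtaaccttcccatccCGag
Cdh9: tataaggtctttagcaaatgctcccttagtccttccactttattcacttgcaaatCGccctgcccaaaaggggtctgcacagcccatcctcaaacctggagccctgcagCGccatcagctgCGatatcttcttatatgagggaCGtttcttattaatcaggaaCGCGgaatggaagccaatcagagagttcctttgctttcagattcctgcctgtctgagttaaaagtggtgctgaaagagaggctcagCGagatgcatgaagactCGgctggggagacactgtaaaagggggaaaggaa
Cdh10: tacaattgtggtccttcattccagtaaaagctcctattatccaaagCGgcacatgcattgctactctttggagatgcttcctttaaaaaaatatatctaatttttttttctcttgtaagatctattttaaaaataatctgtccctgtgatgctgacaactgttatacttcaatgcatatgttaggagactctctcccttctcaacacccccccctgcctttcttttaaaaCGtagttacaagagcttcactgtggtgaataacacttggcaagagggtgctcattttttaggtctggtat

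Cdh6 and Cdh9 each held 8 CG, though only Cdh6 was detected in both libraries, and Cdh10, at a level below Cdh6, held 2. The Cdh10 window lay wholly inside that gene. Next to these stand 2 promoters that are dense in CG, from a type II and a Celsr gene of higher level: Cdh8 (chr8:99416422-99416721 on the minus strand) with 21 CG and Celsr2 (chr3:108415530-108415829 on the minus strand) with 40.
Cdh8: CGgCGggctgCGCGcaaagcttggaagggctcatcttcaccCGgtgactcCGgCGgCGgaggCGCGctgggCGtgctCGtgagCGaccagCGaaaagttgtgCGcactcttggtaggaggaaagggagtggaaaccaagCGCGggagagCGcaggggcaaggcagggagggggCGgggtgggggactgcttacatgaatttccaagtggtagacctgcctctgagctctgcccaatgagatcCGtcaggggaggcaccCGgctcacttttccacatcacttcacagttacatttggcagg
Celsr2: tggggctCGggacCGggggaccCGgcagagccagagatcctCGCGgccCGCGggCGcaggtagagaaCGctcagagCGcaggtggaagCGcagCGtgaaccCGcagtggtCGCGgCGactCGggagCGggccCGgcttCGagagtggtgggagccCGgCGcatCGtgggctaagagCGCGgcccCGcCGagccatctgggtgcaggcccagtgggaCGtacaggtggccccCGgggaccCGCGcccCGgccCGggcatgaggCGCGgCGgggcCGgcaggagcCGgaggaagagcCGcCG

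At least 10 CG were found in 15 of the 20 matched genes detected in both libraries (median 18.5, from 2 to 40) and in 2 of the 7 under 1 TPM in both (median 8, from 4 to 27). The same count held in 43.5% of all 32851 promoters in the table, in 84.5% of those of detected protein-coding genes and in 16.7% of those of protein-coding genes under 1 TPM. Across the 29 genes the Spearman rho of CG count and level was 0.41, a description over genes that share both libraries. Fat1 had 2 CG at 18.90 and 20.62 TPM, and Dchs2 had 27 CG at 0.24 and 0.17 TPM, so single genes departed from that relation in both directions. The Fat1 window (chr8:44949958-44950257) lay inside that gene, whose annotated start is 44935447, so it need not be the main promoter. For Cdh7 and Pcdh9 several promoters were listed and the first by position was used. The windows of Cdh7, Cdh10, Cdh12, Cdh15, Cdh18, Fat2 and Pcdh15 also lay wholly inside their genes. Those of Dchs2, Fat3 and Celsr3 lay wholly before the annotated starts of their genes, so the Dchs2 window need not be the main promoter either. The tallies and the rho therefore mix windows at gene starts with windows inside genes and windows before them. Which starts were used in the midbrain was not tested.

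**Figure D3:**
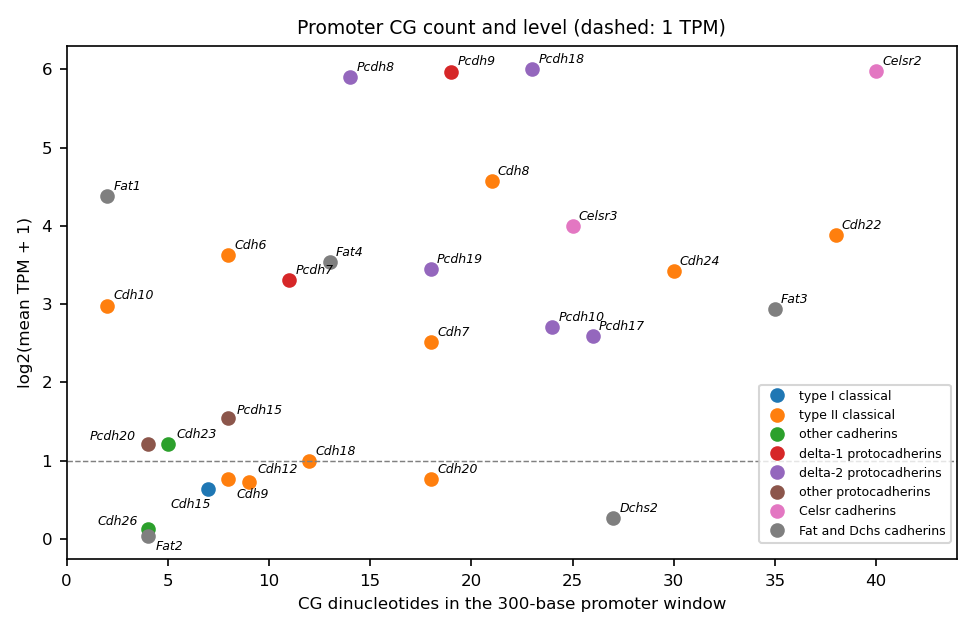
Number of CG dinucleotides in the 300-base promoter window (x axis) against log2(mean TPM + 1) over both libraries (y axis) for the 29 genes with a promoter, coloured by class; the dashed line marks 1 TPM. Celsr2 lies at the far right with 40 CG, and Fat1 and Dchs2 lie away from the general slope. The Fat1 window lies inside that gene, and the Dchs2 window lies before its gene.

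The transcript files divide each gene over its annotated transcripts, and the isoform percent gives each share. Of 26 genes at a mean of 1 TPM or more with several transcripts, 24 had the same leading transcript in both libraries, against 90.4% of all such genes. The exceptions were Pcdh12 and Pcdh15, both near the detection level. Pcdh12 was led by a retained-intron model in replicate 1 (57.3%, against 32.1% in replicate 2) and by its coding transcript Pcdh12-201 in replicate 2, with 23.5% in replicate 1 and 43.9% in replicate 2.

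Among the 15 genes at a mean of 10 TPM or more, Pcdh9 and Fat1 were led by a model that is not complete. A transcript was taken as complete when it was coding with both ends of the coding sequence annotated, held at least 80% of the longest coding sequence of its gene and was long enough in the file to contain it. Measured transcripts that are absent from GENCODE M21 were counted as not complete. Complete transcripts held under 50% of the TPM in both libraries for 9 of the 33 genes, against 15.4% of genes in general. They were Cdh7, Cdh18, Cdh23, Pcdh9, Pcdh12, Pcdh15, Pcdh19, Celsr2 and Fat1. By counts, a tally added after seeing the data, 3 of the 33 genes were under 50% in both libraries (Cdh7, Cdh18 and Pcdh9), against 8.47%. The median share of complete transcripts was 89.3% in the family and 92.5% in general.

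Pcdh9 gave 62.6% and 65.4% of its abundance to Pcdh9-205, a model marked as incomplete in the annotation. All complete transcripts of Pcdh9 held 24.0% and 24.8%. Celsr2-201, the complete form of Celsr2, held 46.0% and 45.3% of its TPM but 86.4% and 85.4% of its counts. Short models weigh more in TPM than in reads, and Pcdh19 showed this further: a 335-base nonsense-mediated decay model held 55.6% and 44.4% of the abundance and 3.12% and 2.19% of the counts. Celsr3-201 had 55.3% and 58.2% of the abundance. Fat1-203 led Fat1 with 48.9% and 57.6%, but it is 4770 bases in the file and shorter than the coding sequence that the later annotation gives it, so its identity is uncertain. By counts the order in Fat1 turned round: the complete Fat1-205 held 70.2% and 64.8%, and Fat1-203 held 29.0% and 34.8%.

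In Cdh2 the transcript Cdh2-202, whose coding sequence is 93.7% of the longest, held 59.1% in replicate 1 and 63.2% in replicate 2, ahead of the longer Cdh2-201 at 33.4% and 28.5%. Pcdh8 divided similarly between Pcdh8-201 at 54.3% and 52.5% and Pcdh8-204 at 40.8% and 42.8%. Pcdh18-201 held 80.4% and 85.8%. Cdh8 was spread over 4 complete transcripts, with Cdh8-204 in front at 40.8% and 37.4%. Cdh11 and Cdh6 have 1 measured transcript each. Cdh4-201 held 92.8% and 96.0%, Cdh22-201 96.4% and 99.2%, and Fat4-201 92.3% and 86.3%. Cdh13-201 held 52.2% and 50.7%, with retained-intron and noncoding models beside it, and Dchs1-201 held 76.5% and 76.0%. A Dchs1 transcript of 10771 bases that is absent from GENCODE M21 held 20.4% and 21.5%. Cdh7 lay at the other end: complete transcripts held 7.42% and 6.10% of it, and a 2-exon model, Cdh7-208, held 48.8% and 56.7%.

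**Figure D4:**
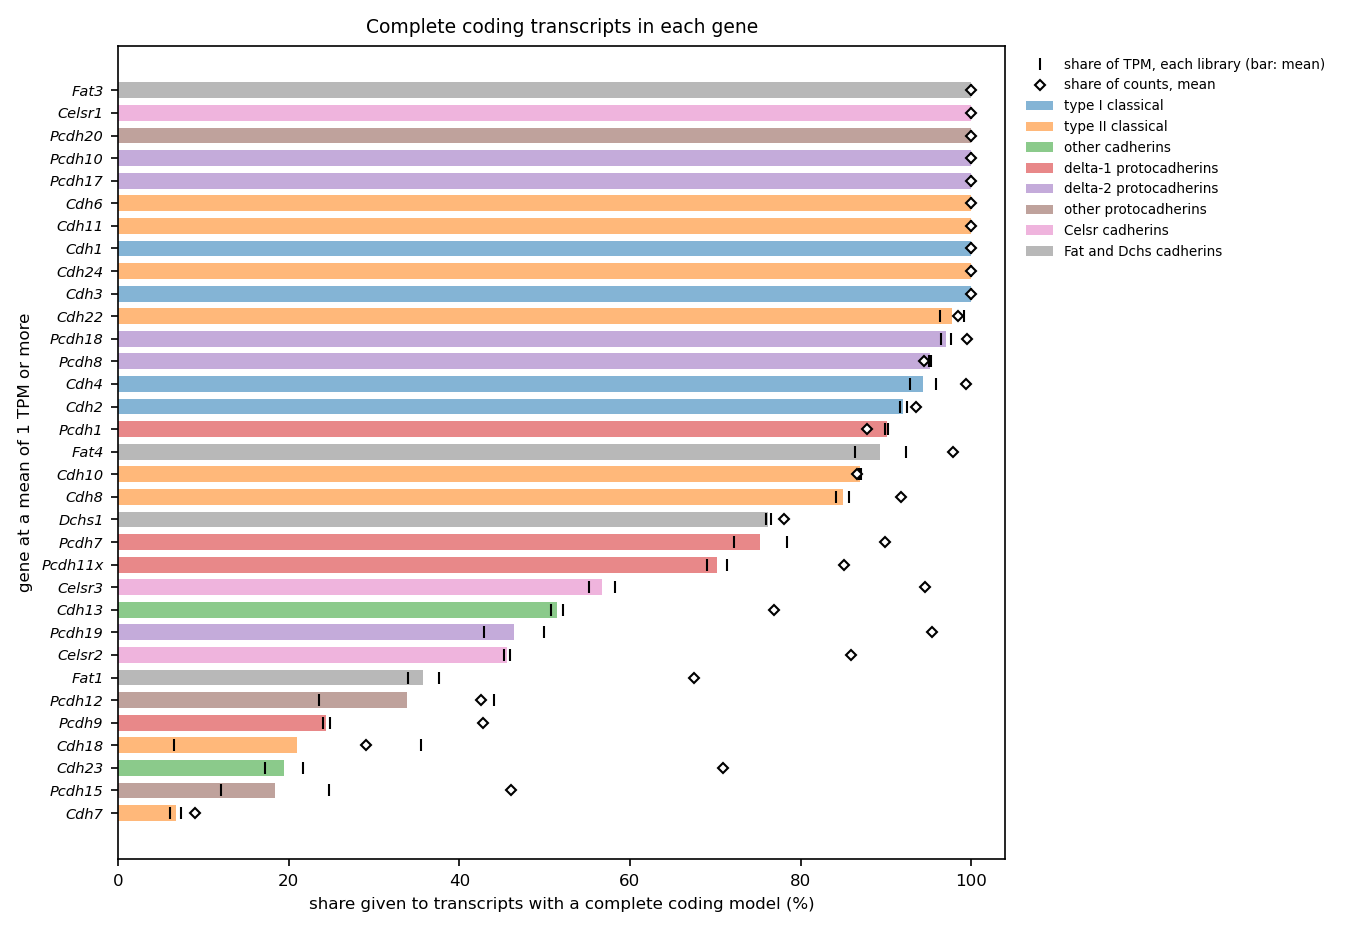
Share of each gene given to transcripts with a complete coding model, for the 33 genes at a mean of 1 TPM or more; bars are the mean share of TPM, ticks the share in each library, and diamonds the mean share of counts. Cdh7 is lowest at 7.42% and 6.10% of TPM, and the diamond lies farthest to the right of the bar for Cdh23, Pcdh19 and Celsr2, with Celsr3 and Fat1 after them.

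The partner genes of the cadherins were present throughout. Of 16 catenin and junction genes 15 were detected in both libraries, and only Ctnna3 was not. Ctnnb1, the beta-catenin that binds classical cadherin tails, had 599.04 TPM in replicate 1 and 594.17 TPM in replicate 2. The junction gene Afdn had 141.24 and 132.91 TPM, Arvcf, a catenin of the p120 group, had 105.55 and 105.34 TPM, and the alpha-catenin gene Ctnna1 had 99.71 and 104.65 TPM. All 16 planar polarity and Fat-Dchs partners were detected, led by the receptor gene Fzd3 at 77.35 and 75.89 TPM, Ptk7 at 45.39 and 51.58 TPM, Vangl2 at 48.50 and 46.09 TPM and Fjx1, the relative of the fly kinase four-jointed, at 42.35 and 39.90 TPM.

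All 9 WAVE complex genes were detected as well. Brk1 had 148.41 and 162.02 TPM, Nckap1 88.43 and 82.79 TPM, Wasf1 68.43 and 61.75 TPM, and Abi2 63.32 and 54.03 TPM. Among 11 genes for cadherin processing and repression 10 were detected in both libraries and Pcsk6 was not. Adam10, a protease that sheds cadherins, had 71.21 and 68.19 TPM, Zeb2 had 50.19 and 51.91 TPM and Zeb1 had 50.27 and 50.17 TPM. Across the 4 lists 1 of 50 genes at a mean of 1 TPM or more was called between the pools: Snai1, a repressor of Cdh1 known from mesenchymal transitions, was lower in replicate 1, with 12.28 TPM, against 20.33 TPM in replicate 2 (0.615-fold, adjusted p = 4.57e-12, exact binomial test). The share of all genes called lower in replicate 1 was 2.18%.

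The pools were then compared gene by gene with a two-sided exact binomial test on normalised counts, adjusted over 18939 genes by the Benjamini-Hochberg method. Genes were called where the adjusted p was under 0.05, the pools were 1.5-fold or more apart and the mean level reached 1 TPM. The test compares these libraries and covers counting error only, not conditions. By this rule 2 of 33 family genes were called, against 3.56% of the 15199 genes at 1 TPM or more (1 higher in replicate 1, background 1.38%, and 1 lower, background 2.18%). Cdh3 (chr8:106510891-106557297) was lower in replicate 1, with 146 counts there and 296 in replicate 2, at 0.636-fold (95% interval 0.517 to 0.777, adjusted p = 6.71e-05), and its deposited TPM intervals did not overlap. Cdh23 (chr10:60302748-60696490) was higher in replicate 1, with 96 and 60 counts, at 2.05-fold (95% interval 1.48 to 2.89, adjusted p = 0.000136), but its TPM intervals of 1.36 to 3.12 and 0.881 to 2.25 overlapped. Neither remained called in edgeR's negative binomial exact test, which adds a common dispersion estimated from these libraries (biological coefficient of variation 0.0940) and called 0 family genes. There the adjusted p was 0.244 for Cdh3 and 0.0512 for Cdh23, and 4 family genes (Cdh3, Cdh6, Cdh8 and Cdh23) had an unadjusted p under 0.05, against 5.74% of genes in general.

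Smaller differences were common. At any ratio the binomial test gave 21 of 33 genes a value under 0.05 after adjustment, against 26.5% of genes in general, with 14 of them higher in replicate 1 (background 13.4%) and 7 lower (background 13.1%). The median mean count was 875 for the family and 889.5 for genes in general. By size alone, with limits chosen after the ratios were seen, 9 of 33 genes were at least 1.25-fold apart, against 15.7%, and 4 were at least 1.3-fold apart, against 12.2%. The deposited TPM intervals were apart for 12 of 33 genes, against 16.1% (7 higher in replicate 1, background 5.28%, and 5 lower, background 10.8%). At any p, 12 of 33 genes were lower in replicate 1, against 51% of genes. The median log2 ratio of the 33 genes was 0.10, against -0.0041 for genes in general, whose 5th to 95th percentiles ran from -0.47 to 0.37. Only Cdh3, Cdh8 and Cdh23 lay outside that range.

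**Figure D5:**
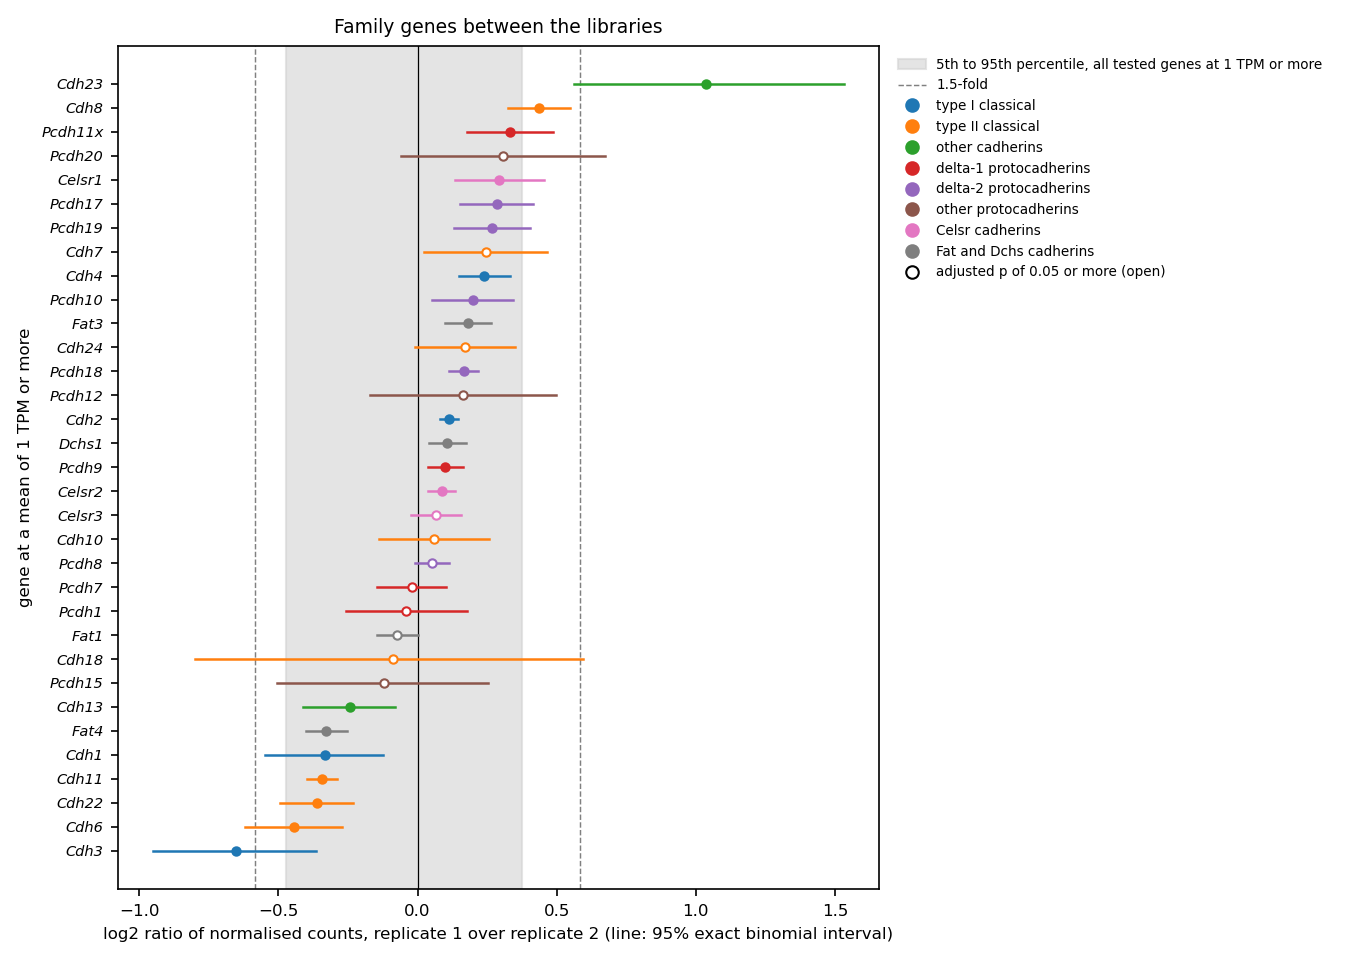
Log2 ratio of normalised counts, replicate 1 over replicate 2, for the 33 genes at a mean of 1 TPM or more, coloured by class, with 95% exact binomial intervals; filled points have an adjusted p under 0.05, the grey band holds the 5th to 95th percentile of all genes and dashed lines mark 1.5-fold. Cdh23 lies far to the right at 1.04 and Cdh3 far to the left at -0.65, and 21 of the 33 points lie right of 0.

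Within the type II class the directions were split. Cdh8 was higher in replicate 1, with a ratio of 1.35 (95% interval 1.25 to 1.46, adjusted p = 2.63e-13 in the exact binomial test). Its neighbour Cdh11 was lower there, with 4657 counts in replicate 1 and 7603 in replicate 2 and a ratio of 0.788 (0.760 to 0.818). Cdh6 and Cdh22 were also lower, at 0.735 and 0.778. In the delta-2 class all 5 ratios were above 1, from 1.04 for Pcdh8 to 1.22 for Pcdh17, and 4 had an adjusted p under 0.05. In type I, Cdh2 at 1.08 and Cdh4 at 1.18 stood opposite to Cdh1 at 0.793 and Cdh3. Fat4 was lower in replicate 1 at 0.797, while its partner Dchs1 was at 1.08 and Fat3 at 1.13. The remaining genes past the adjusted threshold were Cdh13 at 0.844, Pcdh9 at 1.07, Pcdh11x at 1.26, Celsr1 at 1.23 and Celsr2 at 1.06. All of these but Cdh3 and Cdh23 were under 1.5-fold. In the edgeR negative binomial exact test no family gene had an adjusted p under 0.05, with 0.547 for Cdh8, 0.613 for Cdh6 and 0.858 for Cdh11.

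Marker lists of tissue makeup moved between the pools too. Of 8 mesenchyme markers 8 were lower in replicate 1 (7 with an adjusted p under 0.05, median log2 ratio -0.45, summed TPM 1107 in replicate 1 and 1577 in replicate 2), in the direction of Cdh11, Cdh6, Fat4 and Snai1. Of the mesenchyme markers 1 was called lower in replicate 1, Postn at 13.21 and 28.98 TPM (background 2.18%). Most genes of some other lists, but not of all, were also lower in replicate 1. Lower in replicate 1 were 7 of 8 endothelial, 5 of 5 microglia and macrophage, 4 of 4 red cell and 7 of 10 midbrain and isthmus markers. Of these, 5, 4, 4 and 6 had an adjusted p under 0.05. The other 3 midbrain and isthmus markers and the other 1 endothelial marker were higher in replicate 1, each past the same threshold. Of 6 surface epithelium markers 5 were lower there (3 past the threshold, summed 21.94 and 28.37 TPM), in the direction of Cdh1 and Cdh3, while Epcam was higher there at 4.10 and 2.90 TPM (1.44-fold, adjusted p = 0.0173, exact binomial test). All 10 forebrain markers were higher in replicate 1, each with an adjusted p under 0.05 and a median log2 ratio of 0.56, in the direction of Cdh8 and the delta-2 genes. By the calling rule 5 of the 10 were called higher there, against 1.38% of all genes at 1 TPM or more. Of 4 choroid plexus markers 3 were called, 2 higher in replicate 1 and 1 lower (backgrounds 1.38% and 2.18%). Of the 4 hair cell markers, beside Cdh23, Myo7a was at 16.41 and 17.59 TPM, Pou4f3 at 1.67 and 1.60 TPM, Atoh1 at 0.74 and 2.20 TPM and Otof at 0.34 and 0.64 TPM. Atoh1 was called lower in replicate 1, opposite to Cdh23 (0.346-fold, adjusted p = 2.87e-06, exact binomial test, background 2.18%). Otof, under 1 TPM, was at 0.571-fold, while Myo7a and Pou4f3 had ratios of 0.997 and 1.07. None of the genes in these lists was at 0 in either library. Neural progenitor markers summed to 2906 and 2905 TPM and neuron markers to 2083 and 1987 TPM. Of 6 neuron markers 5 were higher in replicate 1, all 5 with an adjusted p under 0.05, also in the direction of Cdh8 and the delta-2 genes. Of 6 progenitor markers 4 were higher there and 2 lower (4 and 1 of them past the threshold). The part of tissue makeup in the ratios of the cadherin genes was not tested.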

How the data were processed

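RNA from the E12.5 midbrain was measured in 2 libraries of separate embryo pools, which form 1 group per the labels. The protocol field links a SMARTer Ultra Low RNA kit manual. Expected counts, estimates that need not be whole, were deposited by the authors for genes and transcripts. The authors scaled TPM for effective length and library, per the file headers. Isoform percent, also deposited, states how a gene's abundance divides over its transcripts. Notes deposited with the files name GENCODE M4 on mm10. The aligner and any use of strand were not given in the sources used here, so reads of overlapping genes may be shared. Names and coordinates came from GENCODE M21, in which 42462 of 43346 gene identifiers matched. The 26345 features that are not genes, spike-ins included, entered neither library sizes nor tests. Genes held 95.9% and 96.5% of all counts.

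Counts were rounded, and TMM (edgeR 4.0.16 in R 4.3.3) gave factors of 0.997 and 1.003. Genes with at least 10 summed counts were tested, and log2 ratios had 0.5 counts added. With 1 library on each side, edgeR's quasi-likelihood test has no residual degrees of freedom. Ratios are replicate 1 over replicate 2, and intervals are 95% exact binomial intervals. A count of 0 was given a limit of 3 counts. Intervals and limits cover counting error only, while the deposited intervals of TPM include the division of reads among transcripts. Every gene of the family is accounted for, and of the partner lists the called genes and the 4 of highest mean TPM are named, except 1 gene that is not reported here. Isoforms were described for genes at a mean TPM of 10 or more, and further isoforms are named on the basis of their values. The genes, classes and lists were chosen with earlier results of these data known. Protein sequences were not analysed here. The tests were checked on simulated data with counting error only. That check cannot show how often genes are called because pools differ beyond counting error. Settings varied were the size factors (total counts, or DESeq2 1.42.0), thresholds, pseudocounts, posterior mean TPM, rescaled TPM, CPM and a negative binomial test. Complete coding transcripts and interval overlap were added as alternatives after seeing the data. The work used scipy 1.17.1, pandas 2.3.3 and numpy 2.4.6 under Python 3.11.15.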

Additional observations from a re-analysis of the deposited data

How the results depend on the processing

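No paired analysis was possible because the 2 libraries form 1 group. Leaving out a library leaves no ratio. Either library alone gave 32 genes at 1 TPM or more. Other TPM scales and thresholds gave 22 to 36 detected genes. The call between the pools was the least stable result. It fell to 0 genes with a 5 TPM minimum and in the edgeR negative binomial exact test (201 genes called in all). With a 2-fold minimum (Cdh23), posterior mean TPM or separate TPM intervals (Cdh3 in both) it fell to 1. It rose to 21 with no ratio minimum and to 3 with no TPM minimum (852 genes called in all). The latter added Cdh12, at 0.80 and 0.52 TPM (1.56-fold, adjusted p = 0.0413, exact binomial test). The ratios were recomputed only with other size factors, with deposited or posterior mean TPM and with a larger pseudocount, and there no ratio changed direction. The other settings change only the test or the thresholds, so they could not turn a ratio round. At a mean TPM of 10 or more, 13 of 13 genes shared their leading transcript. Without length normalisation, the shares of the family were 24.4% for type I, 14.8% for type II, 1.04% for other cadherins, 8.90% for delta-1, 18.9% for delta-2, 0.569% for other protocadherins, 13.6% for Celsr and 17.8% for Fat and Dchs genes. With complete coding transcripts only, a setting chosen after seeing the data, 28 genes were detected and the shares were 33.2% for type I, 23.5% for type II, 1.25% for other cadherins, 5.35% for delta-1, 22.9% for delta-2, 0.434% for other protocadherins, 6.86% for Celsr and 6.52% for Fat and Dchs genes. Posterior mean TPM gave the other protocadherins 0.921%. The first 2 settings differ by construction in length scaling and in the transcripts counted, and the cause of the last shift was not tested. Cdh16 and Cdh26 were under the count minimum and have no test. Fat2, with 11 and 7 counts, had a ratio of 1.97 with an interval from 0.716 to 6.15.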
